A study of Mus musculus with 4 samples.

Results

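Mitochondrial ribosomal protein genes were followed in leukemic stem cells (LSCs) with and without CD37. The members were all protein-coding genes of the deposited table whose symbol is Mrpl or Mrps followed by a number, and there were 72 of them among 17104 genes. By the structure of the particle, 47 belong to the large subunit and 24 to the small subunit of the mitochondrial ribosome, Mrps18a and Mrps30 being large-subunit proteins in spite of their names. Mrps36 was a member by its symbol only, since its product is now known as a component of the 2-oxoglutarate dehydrogenase complex. Of the 72 genes, 43 encode proteins that hold the place of a bacterial ribosomal protein and 28 encode proteins without such a counterpart. Mrps18a and Mrps18b were counted among the 28, since they are related to bacterial S18 but sit elsewhere in the particle.

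The mitochondrial ribosome, or mitoribosome, translates the few messages that mitochondrial DNA encodes, all of them for subunits of the respiratory chain and the ATP synthase. Its ribosomal RNAs come from mitochondrial DNA, while every one of its proteins is encoded in the nucleus, made on cytosolic ribosomes and imported. Myeloid leukemia stem cells are known to lean on oxidative phosphorylation, which depends on this particle.

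Poly(A) RNA was compared in 4 libraries, 2 per genotype, from YFP+ c-kit+ cells of the bone marrow of male C57 mice 6 weeks after a secondary transplantation. All the cells descended from Lin- bone marrow of CD37fl/fl, Cre+ mice, in which tamoxifen switches on the CreERT2 recombinase, and all carried the MLL-AF9 fusion with YFP from a retrovirus. Recipients of the primary transplant received tamoxifen, which deletes the floxed Cd37 alleles (CD37-/-), or corn oil (CD37fl/fl), so that drug and genotype cannot be told apart. The sources used here do not say how many mice each library holds, so that the p-values measure the spread between libraries only.

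The totals implied by the values were 15327358 to 22627494 reads per library, and 113 to 7617 of them fell on any 1 member. Cd37, the deleted gene, had an FPKM (fragments per kilobase of gene, scaled to library size) of 56.6 and 46.8 with the floxed alleles intact, and CD37-/- LSCs had 23.2 and 22.9, or 44.6% of the CD37fl/fl mean. Of 8 myeloid progenitor and leukemia markers in the table, 3 were higher and 2 lower in both CD37-/- libraries. Over all tested genes the shares were 38.2% and 23.7%, so these counts are not a result about the markers. Mpo, an early granule enzyme, had 80.3 and 51.6 in CD37fl/fl against 34.4 and 20.8 in CD37-/- LSCs, and Ctsg had 403 and 1357 against 375 and 362, whereas Ptprc (CD45) had 0.765 and 0.841 against 1.78 and 2.93 and Meis1 had 0.512 and 0.573 against 0.884 and 0.851. Kit, the receptor used for the sort, had 0.170 and 0.325 against 0.327 and 0.434, and the groups overlapped for Elane (1750 to 1884), Hoxa9 (38.8 to 47.2) and Cd34 (no more than 0.0411). All 7 erythroid markers in the table were higher in both CD37-/- libraries, with summed FPKM of 60.9 and 5.17 in CD37fl/fl against 576 and 143 in CD37-/- replicates 1 and 2. In the order CD37fl/fl replicates 1 and 2 and CD37-/- replicates 1 and 2, the summed FPKM was 12.8, 15.4, 8.46 and 6.64 for 4 B cell markers, 94.7, 118, 40.3 and 41.4 for 4 T and NK cell markers, nearly all of it Nkg7, and 17.3, 3.27, 5.98 and 7.77 for 7 macrophage and dendritic cell markers. Megakaryocyte markers summed to 3.94 to 15.2 and stromal markers to 0.840 to 1.66, and the part of these markers in the results below was not tested.

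RefSeq promoter sequences (GRCm38.p6) were found for 64 of the 72 members, not for Mrpl4, Mrpl13, Mrpl15, Mrpl19, Mrpl38, Mrpl54, Mrps28 and Mrps35. The members lie on 17 chromosomes, with no more than 11 on any (chromosome 11), and promoters are shown because start regions are what genes on separate chromosomes can have in common. Printed are the 120 bases before the start of the member with the highest level (Mrpl12), of another abundant one (Mrps21), of 4 that were lower in CD37-/- LSCs (Mrpl58, Mrps26, Mrpl28 and Mrps12) and of the one with the largest positive fold change (Mrpl10). Capitals mark letters of known motifs, as listed after the sequences.
Mrpl12, chr11:120484517-120484636, plus strand: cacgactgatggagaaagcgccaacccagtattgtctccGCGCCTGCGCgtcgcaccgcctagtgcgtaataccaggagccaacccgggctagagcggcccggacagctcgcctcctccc
Mrps21, chr3:95871515-95871634, minus strand: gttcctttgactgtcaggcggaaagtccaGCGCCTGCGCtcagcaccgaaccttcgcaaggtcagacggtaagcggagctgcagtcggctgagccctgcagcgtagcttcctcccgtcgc
Mrpl58, chr11:115403632-115403751, plus strand: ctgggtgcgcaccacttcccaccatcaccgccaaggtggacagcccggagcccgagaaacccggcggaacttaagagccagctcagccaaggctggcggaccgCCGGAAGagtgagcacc
Mrps26, chr2:130563637-130563756, plus strand: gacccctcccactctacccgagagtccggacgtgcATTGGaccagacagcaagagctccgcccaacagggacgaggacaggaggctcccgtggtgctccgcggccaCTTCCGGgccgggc
Mrpl28, chr17:26123383-26123502, plus strand: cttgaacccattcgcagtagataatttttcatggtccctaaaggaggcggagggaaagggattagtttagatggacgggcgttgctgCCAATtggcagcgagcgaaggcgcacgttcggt
Mrps12, chr7:28741822-28741941, minus strand: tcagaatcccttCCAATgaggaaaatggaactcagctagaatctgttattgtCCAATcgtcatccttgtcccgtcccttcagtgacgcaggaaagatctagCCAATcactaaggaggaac
Mrpl10, chr11:97041462-97041581, plus strand: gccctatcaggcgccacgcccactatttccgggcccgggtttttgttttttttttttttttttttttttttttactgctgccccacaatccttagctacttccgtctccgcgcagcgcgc
The capitals in Mrpl12 and Mrps21 match the motif of NRF1, a regulator of nuclear genes for mitochondria, on the opposite strand. In Mrpl58 and Mrps26 they match CCGGAAG, the core of ETS factors such as GABPA, and in Mrps26, Mrpl28 and Mrps12 they match CCAAT, the box bound by NF-Y, in either orientation. Mrpl10 had none of these letters in the 300 bases searched, which ran from 250 before to 50 after the start. The 64 members had 70 promoters in the table, which were set against the 21263 promoters of protein-coding genes and all 32851 promoters. NRF1 letters were in 12 member promoters (17.1%), against 6.38% of the coding and 4.60% of all promoters. ETS letters were in 23 (32.9%), against 11.6% and 8.86%, and GATGGCG, the letters of YY1, in 8 (11.4%), against 4.29% and 3.49%. CCAAT was in 28 (40.0%), against 38.2% and 37.4%. Both strands were searched, letters of different motifs overlapped in 0 member promoters, and a match describes the sequence and no binding. Among tested members the median log2 fold change was -0.39 both with NRF1 letters (12 genes) and without them (47 genes), and was -0.39 both with ETS letters (21 genes) and without (38 genes).

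How abundant each member was came first. The deposited FPKM divides by the whole gene, introns included, so levels between genes were compared after dividing the recovered reads by exon length (RPKM over exons, the reads per kilobase scaled to library size, here called the level). The median member had a level of 28.4, with quartiles of 15.8 and 60.2. Mrpl12, the stalk protein that receives the elongation factors, was highest at 214 ± 81.0 (SD over 4 libraries), followed by Mrpl54 at 145 ± 49.6 and Mrps21, the homolog of bacterial S21, at 124 ± 29.5. At the other end stood Mrpl23, a protein near the exit of the nascent chain, at 1.63 ± 0.216, Mrps18a at 3.50 ± 0.777 and Mrpl3, a core protein of the large subunit, at 4.69 ± 0.898. The highest and lowest members were thus 131-fold apart. Exon length pooled all annotated transcripts of a gene, which lowers the level of genes with long unspliced or minor transcripts. The SD of Mrpl12 over libraries reached the mean of Mrpl54, and that of Mrpl54 the mean of Mrps21, but the genes share the 4 libraries. Mrpl12 was above Mrpl54 in each library, at 271 and 287 against 186 and 176 in CD37fl/fl LSCs. In CD37-/- LSCs it had 186 and 112 against 141 and 76.6. Mrpl54 was above Mrps21 except in CD37-/- replicate 2, where it had 76.6 against 88.3. Mrpl23 stood apart from Mrps18a by more than their SDs.

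**Figure D1:**
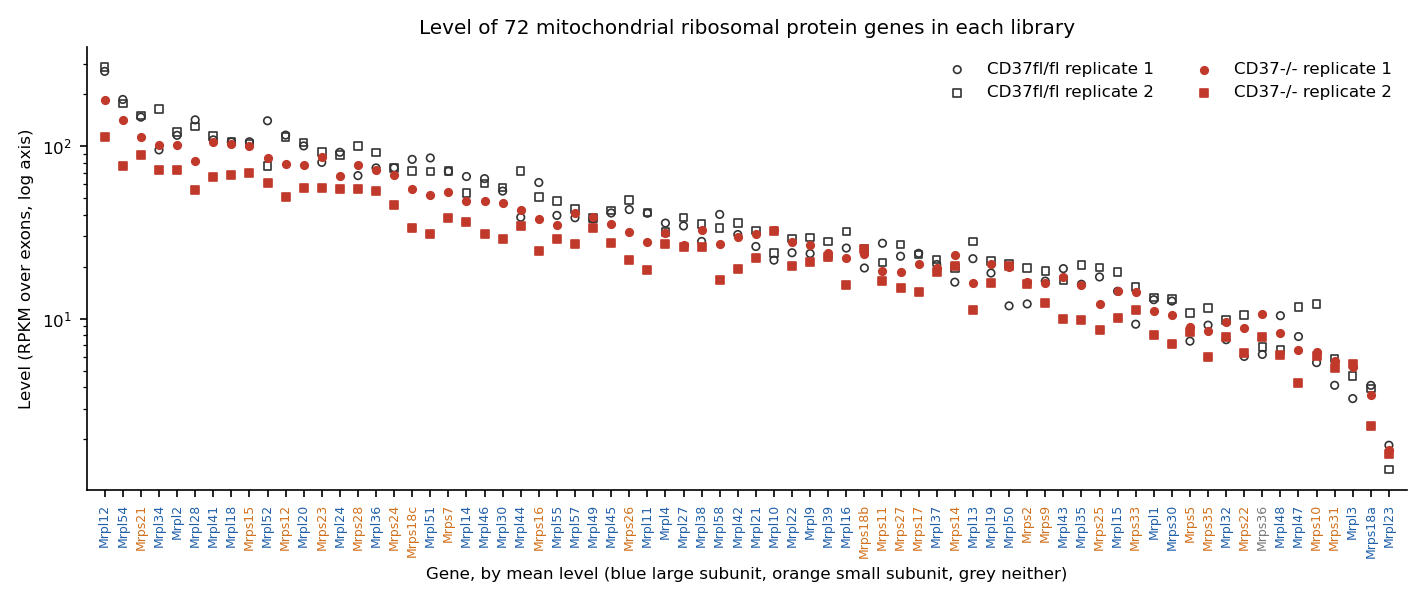
Level of each of the 72 genes in each library (y axis, RPKM over exons, log scale; open symbols CD37fl/fl, filled symbols CD37-/-), ordered by mean level. Levels run from 214 for Mrpl12 to 1.63 for Mrpl23, and CD37-/- replicate 2 (filled squares) lies lowest for most of the abundant genes.

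The comparison of CD37-/- with CD37fl/fl LSCs asked whether loss of CD37 goes with a change in these genes. Most members were lower in the CD37-/- libraries, in both subunits and most of all in 1 library, while no single member passed the test after correction. A mean FPKM of at least 1 was reached by 66 members. The log2 fold change of FPKM + 1 was negative for 57 of the 66 (86.4%), against 41.2% of all 6761 genes tested. Its median was -0.39, with quartiles of -0.57 and -0.12, against 0.11 over all tested genes. By limma with Benjamini-Hochberg adjustment, 0 members and 0 of the 6761 genes had an adjusted p under 0.05 (background 0.0%), and the smallest adjusted p of a member was 0.141. At an unadjusted p under 0.05, 13 of the 66 members (19.7%) were lower and 0 were higher, where the background was 7.96% lower and 16.1% higher. Groups did not overlap, with both CD37-/- libraries below both CD37fl/fl libraries, for 39 members (59.1%; background 23.7%), and the reverse held for 4 members (6.06%; background 38.2%). In bulk RNA, fewer cells of one kind and less of an RNA per cell cannot be told apart.

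The second CD37-/- library lay furthest from the CD37fl/fl libraries. Against the CD37fl/fl mean, the median member was at -0.18 in CD37-/- replicate 1 and at -0.57 in CD37-/- replicate 2, with the CD37fl/fl libraries themselves at -0.06 and 0.06. CD37-/- replicate 2 was lowest of the 4 libraries for 54 members (81.8%; background 29.7%), and was below CD37-/- replicate 1 for 63 of the 66 (95.5%), which held for 49.0% of all tested genes. CD37-/- replicate 1 on its own lay below both CD37fl/fl libraries for 39 members (59.1%), against 28.2% of all tested genes. Without CD37-/- replicate 2 the median of the members was -0.18, against 0.10 over all tested genes. It was -0.57 against 0.11 without CD37-/- replicate 1. Without CD37fl/fl replicate 1 it was -0.44 against 0.07, and without CD37fl/fl replicate 2 it was -0.31 against 0.13. The size of the median thus depends on which libraries enter. CD37-/- replicate 2 was also the most deeply sequenced library, with 22627494 reads, and had the lowest summed FPKM, 181944, and the part of either in these values was not tested.

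**Figure D2:**
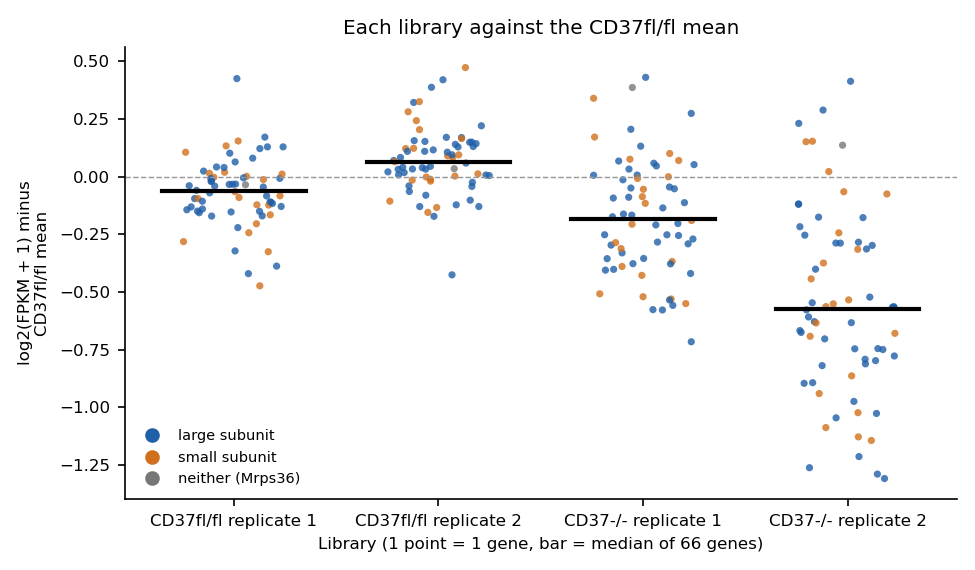
Difference of log2(FPKM + 1) from the CD37fl/fl mean (y axis) for the 66 tested genes in each library (x axis), 1 point per gene coloured by subunit and a bar at the median. The medians are -0.06, 0.06, -0.18 and -0.57 from left to right, and the points of CD37-/- replicate 2 reach furthest down.

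Scaling mattered as well. The summed FPKM of all genes differed between libraries, 260590 and 257393 in CD37fl/fl against 217309 and 181944 in CD37-/- LSCs. Each library was also rescaled to the same sum, called TPM rescaling here although the FPKM divide by span and not transcript length. The median of all tested genes then moved to 0.40 and that of the members to -0.055. Of 67 members tested on that scale, 1 was lower (Mrpl28, -0.62) at an unadjusted p under 0.05 (limma), beside 2.83% of all genes. Higher were 2 (Mrpl10, 0.75, and Mrps14, 0.59), beside 30.6% of all genes, so these calls are not a result about the members. Rescaling multiplies each library by 1 factor and so shifts the members and all genes nearly alike. The distance between them, -0.46 after rescaling and -0.49 before, could therefore change little. As a share of all reads, the 72 members took 0.687% and 0.734% in CD37fl/fl LSCs and 0.588% and 0.426% in CD37-/- LSCs, or 0.710% ± 0.0328 against 0.507% ± 0.114 (SD, n = 2). These groups did not overlap, and the two-sided exact permutation p of 0.333 is the smallest that 2 against 2 libraries can give. As a share of summed FPKM they did overlap, at 0.516% and 0.553% against 0.517% and 0.433%.

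**Figure D3:**
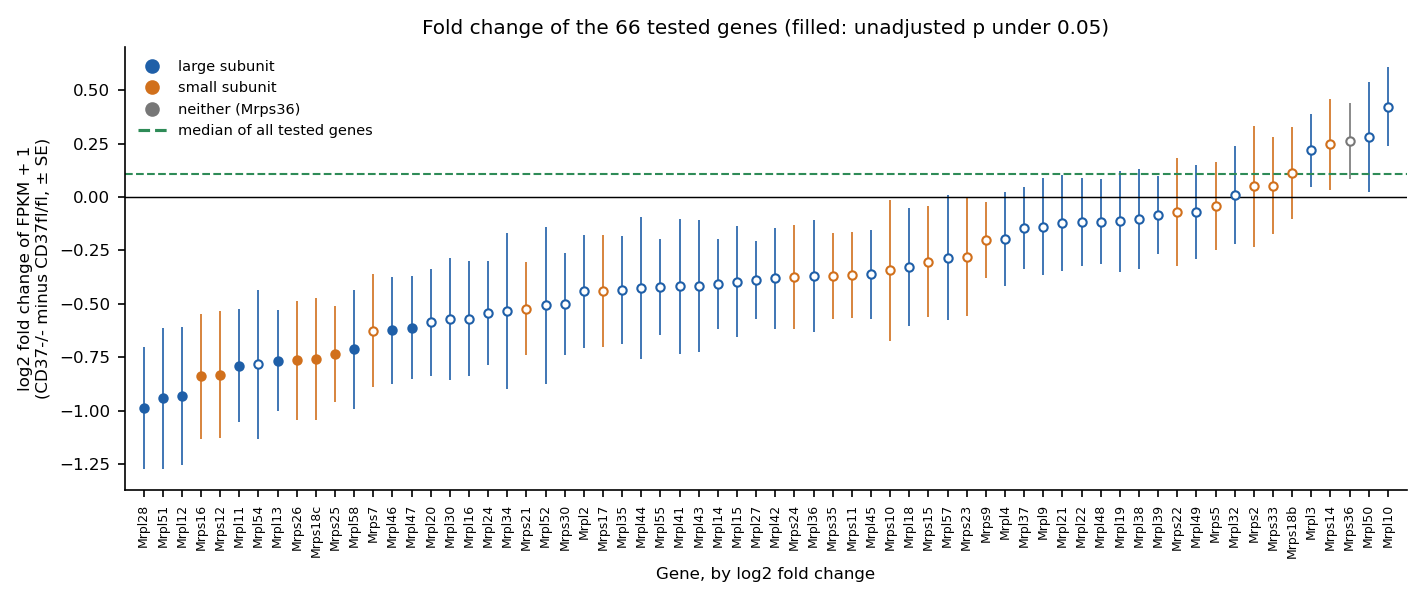
Log2 fold change of FPKM + 1 with its standard error (y axis) for each of the 66 tested genes, ordered by size, coloured by subunit and filled where the unadjusted p was under 0.05. Values run from -0.99 for Mrpl28 to 0.42 for Mrpl10, and 57 of 66 lie below 0.

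Both subunits of the mitoribosome had negative medians. Among 44 tested large-subunit genes 40 had a negative fold change, 8 were lower at an unadjusted p under 0.05 and the median was -0.41. Among 21 small-subunit genes 17 were negative, 5 were lower and the median was -0.36. Over all tested genes, 41.2% were negative and 7.96% lower in this sense. The ratio of large-subunit to small-subunit reads was 2.23 and 2.13 for CD37fl/fl LSCs, and CD37-/- LSCs had 2.13 and 2.07. By the origin of the protein, 40 genes with a bacterial counterpart had a median of -0.40 and 25 without one had a median of -0.37. The difference between these classes was not tested.

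In the large subunit, Mrpl28, the homolog of bacterial L28, had the largest negative fold change of all members. Its FPKM was 62.9 and 57.5 in CD37fl/fl LSCs and 36.2 and 24.5 in CD37-/- LSCs, which left 50.4% of the CD37fl/fl mean. The groups were apart, and CD37-/- replicate 2 was the lower of its pair. Its log2 fold change was -0.99 (SE 0.29), and limma gave a Benjamini-Hochberg adjusted p of 0.141. The neighbouring values were those of Mrpl51, a protein that bacterial ribosomes lack, with an FPKM of 77.2 and 64.4 in CD37fl/fl and of 46.9 and 27.9 in CD37-/- LSCs (-0.94 ± 0.33, SE). Mrpl13, one of the universal large-subunit proteins, had an FPKM of 7.46 and 9.41 against 5.38 and 3.78 (-0.77 ± 0.24, SE). In both genes every CD37-/- library was below every CD37fl/fl library.

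The stalk, the flexible arm on which translation factors dock, had members on both sides of 0. Mrpl12, which forms its mobile part, had an FPKM of 93.2 and 98.7 in CD37fl/fl LSCs and of 64.0 and 38.7 in CD37-/- LSCs (-0.93 ± 0.32, SE). Mrpl11, at the base of the stalk, had 27.1 and 27.4 against 18.5 and 12.7 (-0.79 ± 0.26, SE). Mrpl10, the protein that ties Mrpl12 to the ribosome, had 4.87 and 5.37 against 7.24 and 7.14 (0.42 ± 0.19, SE, unadjusted p 0.0651 from limma across all genes). The groups were apart for all 3, with Mrpl12 and Mrpl11 lower and Mrpl10 higher in both CD37-/- libraries, and the difference between these genes was not tested. Mrpl10 overlaps Gm11574, a transcript on the opposite strand, over 523 bases, and the strand setting of the counting is not given in the sources used here.

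Other large-subunit genes filled the range between. Mrpl58, a peptidyl-tRNA hydrolase built into the particle that can free stalled chains, had an FPKM of 15.0 and 12.5 in CD37fl/fl LSCs and of 10.1 and 6.22 in CD37-/- LSCs (-0.71 ± 0.28, SE). Mrpl54 had 69.2 and 65.4 against 52.4 and 28.4, and its fold change of -0.78 had an unadjusted p of 0.0672 from limma across all genes, the spread between the CD37-/- libraries being wide. Both genes had groups that did not overlap. On the other side, Mrpl50 had 2.95 and 5.17 against 4.97 and 5.03 (0.28 ± 0.26, SE), with CD37fl/fl replicate 2 above both CD37-/- libraries, and without CD37fl/fl replicate 1 its sign turned (-0.040). Mrpl3 had 0.859 and 1.17 against 1.31 and 1.35 (0.22 ± 0.17, SE), groups that were apart by little, and was at -0.0036 after quantile normalization. Mrpl23, the member with the lowest level, had 1.12 and 0.809 against 1.04 and 0.992, with no separation of the groups.

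In the small subunit the called genes included core and mitochondria-specific proteins. Mrps12, the homolog of bacterial S12 at the decoding center, had an FPKM of 55.2 and 53.8 in CD37fl/fl LSCs and of 37.7 and 24.1 in CD37-/- LSCs (-0.83 ± 0.30, SE). Mrps16, the homolog of bacterial S16, had 40.8 and 33.7 against 25.0 and 16.4 (-0.84 ± 0.29, SE). The groups did not overlap for either gene. Mrps25 and Mrps26 have no bacterial counterpart. Mrps25 had 7.90 and 8.99 against 5.53 and 3.91 (-0.74 ± 0.22, SE), and Mrps26 had 37.7 and 42.8 against 28.0 and 19.3 (-0.77 ± 0.28, SE). Both were lower in each CD37-/- library, although Mrps25 shares 4770 bases of its span with Nr2c2 on the opposite strand. Mrps21 had 12.2 and 12.5 against 9.35 and 7.34 (-0.52 ± 0.22, SE, unadjusted p 0.0548 from limma across all genes), again with the groups apart.

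The 3 paralogs of bacterial S18 had unlike values. Mrps18c, which takes the place of S18 in the small subunit, had an FPKM of 15.4 and 13.2 in CD37fl/fl LSCs and of 10.3 and 6.18 in CD37-/- LSCs (-0.76 ± 0.29, SE). Mrps18b, a second small-subunit paralog, had 6.83 and 8.84 against 8.21 and 8.76, overlapping groups with a fold change of 0.11 ± 0.22 (SE) that was at -0.0019 after quantile normalization and -0.053 without CD37fl/fl replicate 1. Mrps18a, the paralog in the large subunit, was under the filter with 0.844 and 0.811 against 0.739 and 0.491, lower in each CD37-/- library. By level per exon length the order was Mrps18c at 61.3 ± 21.6 (SD), Mrps18b at 23.5 ± 2.68 and Mrps18a at 3.50 ± 0.777. Of the 31-base stretches of Mrps18c, 32.8% also occur in other annotated genes, and 6876 bases of the Mrps18a span lie under Rsph9 on the opposite strand, so both values carry that uncertainty.

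Mrps36, the member outside the mitoribosome, was among the 4 genes with both CD37-/- libraries above both CD37fl/fl libraries, the others being Mrpl10, Mrps14 and Mrpl3. Its FPKM was 0.907 and 1.00 against 1.55 and 1.15 (0.26 ± 0.18, SE), and 21.0% of its 31-base stretches are shared with processed pseudogenes. Its mean in CD37fl/fl LSCs was 0.954, so it passed the filter only through the CD37-/- libraries. Mrpl46 (-0.63 ± 0.25, SE) and Mrpl47 (-0.61 ± 0.24, SE), both large-subunit proteins, completed the 13 genes that were lower at an unadjusted p under 0.05. The tested members outside the 13 and the 4 had fold changes from -0.78 (Mrpl54) to 0.28 (Mrpl50). Among the 6 genes under the filter, Mrpl1, Mrps18a and Mrps27 were lower in both CD37-/- libraries, and Mrpl23, Mrps28 and Mrps31 had overlapping groups. Mrps28 missed the filter because its introns stretch the span to 156 times the exon length, while its level per exon length of 75.4 ± 18.8 (SD) was above that of most members.

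The abundant members lay furthest below the CD37fl/fl libraries. The 22 tested members with the highest levels (47.0 to 214) all had negative fold changes, with a median of -0.54. The 22 in the middle (20.6 to 47.0) had a median of -0.36 with 20 negative, and the 22 with the lowest levels (4.69 to 20.2) had a median of -0.13 with 15 negative. Across the 66 genes, which share the 4 libraries, Spearman's rho between fold change and level was -0.51, and it was -0.45 with a pseudocount of 0.1 and -0.42 over 72 members with limma-voom on recovered reads. Other tested genes in the same 3 ranges of level had medians of -0.12, 0.09 and 0.19, from high to low, so that the order was shared by genes outside the family while the members were lower in each range. Gene length was compared as well. Fold changes of all tested genes correlated with gene span (rho 0.20) and exon length (rho 0.25). The 3448 other protein-coding genes within the 10th to 90th percentile of member spans had a median of 0.08 with 42.9% negative, and 4513 within that range of exon lengths had a median of 0.09 with 42.2% negative. The part of length in the members' values was not tested.

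Many members share a start region with a gene on the other strand. A protein-coding partner that starts within 1000 bases in the opposite direction was found for 31 members, and for 17 of them a partner outside the family was tested together with the member. In these 17 pairs 15 members and 6 partners had a negative fold change, with medians of -0.42 for the members and 0.07 for the partners. Over all tested genes 41.2% were negative with a median of 0.11, and over all tested members 86.4% with a median of -0.39. The counts were near these shares, so they are not a result about shared start regions. Mrpl54 (-0.78) starts 26 bases from Apba3, an adaptor protein gene, whose FPKM was 4.07 and 4.68 in CD37fl/fl LSCs and 6.70 and 7.16 in CD37-/- LSCs (0.56). Mrpl57 (-0.29) starts 49 bases from Ska3, a kinetochore gene (0.54), and Mrpl48 (-0.12) 891 bases from Rab6a, a trafficking GTPase (0.62). These 3 partners were higher at an unadjusted p under 0.05 (limma), and the remaining called partner was lower: Ndufb5, a complex I subunit, 615 bases from Mrpl47, with 12.5 and 12.3 against 8.28 and 4.78 (-0.87). Calls among the partners, 3 higher and 1 lower of 17, were near the background of 16.1% and 7.96%. Ska3, at 0.775 and 1.04 in CD37fl/fl LSCs and 1.67 and 1.87 in CD37-/- LSCs, passed the filter only through the CD37-/- libraries. Mrpl46 and Mrps11, one from each subunit, start 412 bases apart and were at -0.63 and -0.36. The difference within pairs was not tested, and 21 members overlap a gene of the table on the opposite strand.

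Other genes of mitochondrial translation were grouped by role. The 5 mitoribosomal proteins with other symbols were at a median of -0.52, against 0.11 over all tested genes. Among them 4 were negative (41.2% of all tested genes) and 1 was lower at an unadjusted p under 0.05 from limma (7.96% of all tested genes). That gene was Gadd45gip1, a large-subunit protein, with an FPKM of 10.2 and 13.6 in CD37fl/fl LSCs and of 5.04 and 5.82 in CD37-/- LSCs (-0.99 ± 0.23, SE). Its groups were apart and its CD37-/- libraries close together. Chchd1 and Dap3, of the small subunit, were at -0.58 and -0.34 with groups apart, whereas Aurkaip1 (-0.52) and Ptcd3 (0.18) had overlapping groups. A single call among 5 genes is not a result about the list.

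The factors that work with the mitoribosome had medians from -0.10 to 0.13, where that of all tested genes was 0.11 with 41.2% negative. Of 9 tested translation factors 4 were negative and the median was 0.13. Tufm, the elongation factor that brings tRNAs, was the only one called, with 16.9 and 16.9 against 11.7 and 9.86 (-0.61 ± 0.22, SE), while Gfm1, the translocase, had 0.732 and 1.27 against 1.60 and 2.07 (0.51 ± 0.21, SE). These 2 elongation factors had separate groups in opposite directions. The 17 tested assembly factors had a median of -0.10 with 9 negative, and the 2 called were lower: Mpv17l2 (-0.69 ± 0.24, SE), which left 61.0% of its CD37fl/fl mean, and Rcc1l (-0.47 ± 0.18, SE). The 12 aminoacyl-tRNA synthetases, which charge mitochondrial tRNAs, had a median of 0.10 with 5 negative, and Vars2 was higher, with 0.540 and 0.835 against 1.60 and 2.22 (0.78 ± 0.20, SE). With means of 0.687 in CD37fl/fl and 1.91 in CD37-/- LSCs, Vars2 passed the filter only through the group in which it was high. The 11 genes of mitochondrial RNA synthesis and upkeep had a median of 0.10 with 2 negative, and Trmt10c, which serves tRNA processing, was higher, with 3.54 and 4.96 against 6.75 and 6.99 (0.60 ± 0.21, SE). Calls here are at an unadjusted p under 0.05 from limma, where 7.96% of all tested genes were lower and 16.1% higher, so that so few calls in lists of this size are not a result about the lists. Whether these lists differ from the members was not tested. Transcripts of the mitochondrial genome were not analysed here.

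Lower values were not particular to the mitoribosome. The median was -0.62 over 74 cytosolic ribosomal protein genes, with 66 negative and 21 lower at an unadjusted p under 0.05. It was -0.45 over 75 nuclear-encoded respiratory chain subunits, with 64 negative and 14 lower. CD37-/- replicate 2 was the lowest library for 89.2% of the former and 82.7% of the latter, beside 81.8% of the mitochondrial ribosomal protein genes. Among all tested genes 41.2% were negative, 7.96% were lower in this sense, and CD37-/- replicate 2 was lowest for 29.7%.

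**Figure D4:**
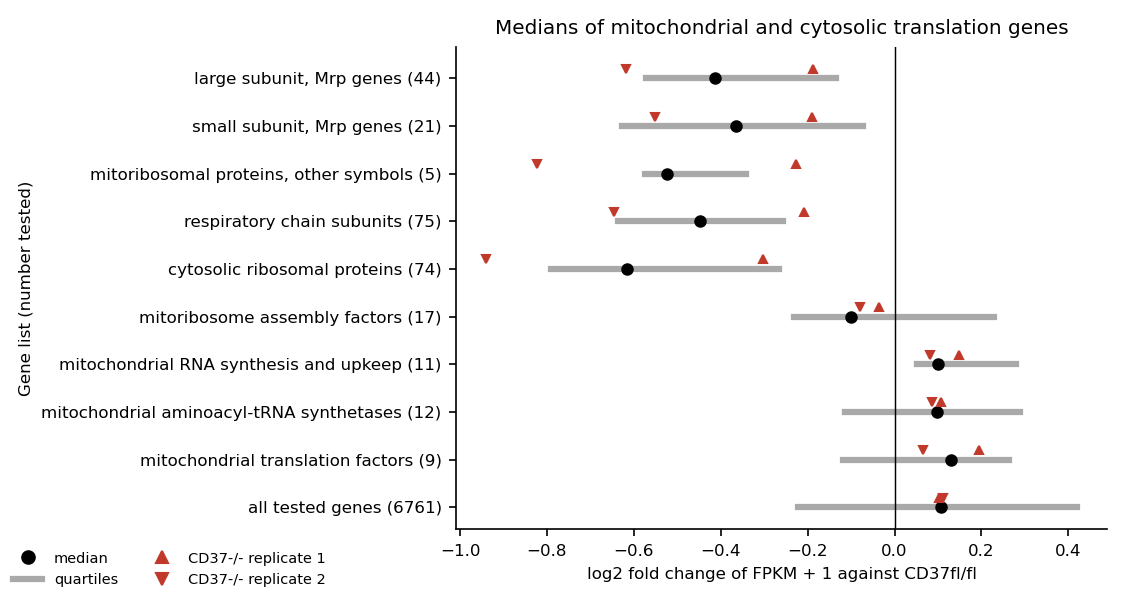
Median log2 fold change of FPKM + 1 (x axis; dot) with quartiles (bar) for each gene list (y axis, number tested in brackets), and the list's median in each CD37-/- library against the CD37fl/fl mean (triangles). Both subunits, the respiratory chain and the cytosolic ribosome lie left of 0, at -0.36 to -0.62, with CD37-/- replicate 2 furthest left, while translation factors, synthetases and RNA upkeep genes lie at 0.10 to 0.13.

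**Figure D5:**
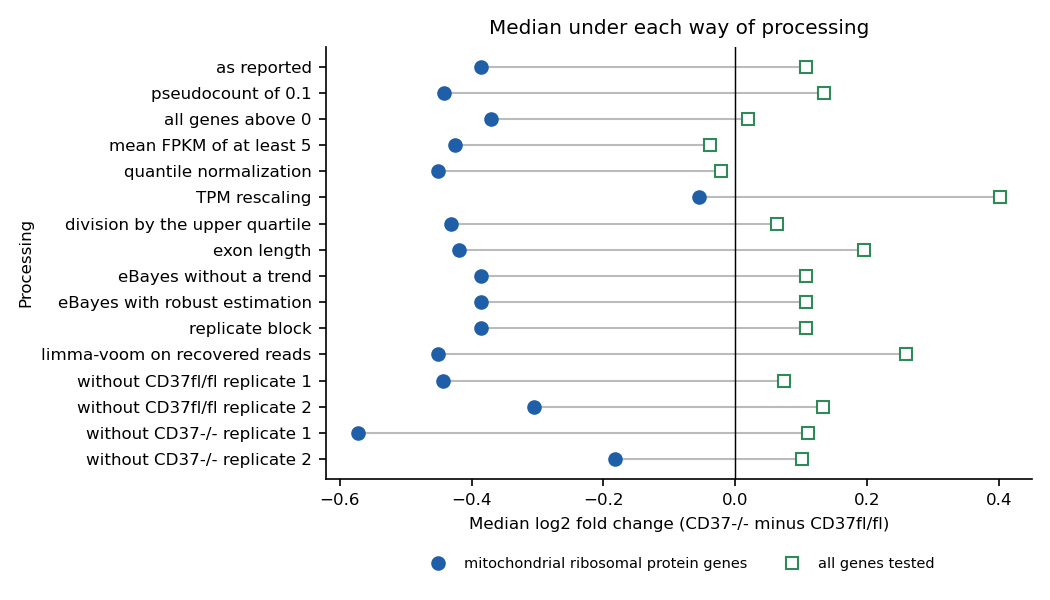
Median log2 fold change (x axis) of the mitochondrial ribosomal protein genes (dots) and of all genes tested (squares) under each way of processing (y axis). The dots lie left of the squares throughout, from -0.57 without CD37-/- replicate 1 to -0.055 after rescaling to equal sums, where the squares reach 0.40.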

How the data were processed

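RNA from 4 libraries (2 per genotype) had been sequenced as strand-specific poly(A) libraries. The authors deposited 1 table of FPKM per gene, and the submitters' processing notes list fastp 0.20.1, STAR 2.7.7a, featureCounts 2.0.0, edgeR and mm39, with no roles given. With the gene spans of GENCODE M21 (GRCm38), the deposited FPKM of all 72 members came out as whole reads within 0.05 in each library, so the FPKM divide by the span, introns included; the annotation used and whether intronic reads were counted are not given in the sources used here. Between 98.92% and 98.93% of all values came out whole. FPKM gives genes with long introns low values, and a filter on FPKM drops them.

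Samples were grouped by the genotype in the labels. The 6761 genes whose mean FPKM reached 1 were tested on log2(FPKM + 1), which understates changes of low genes, with limma 3.58.1 (lmFit, eBayes with trend) in R 4.3.3, and p-values were adjusted by Benjamini-Hochberg over all of them. Fold changes are CD37-/- minus CD37fl/fl. The script was tested on simulated data. Replicate numbers are shared by the groups in the labels, but nothing says that they pair libraries. Alternatives covered the pseudocount, filters, scaling, gene length, limma-voom on recovered reads, eBayes settings, a replicate block and leaving out each library. Reads were recovered from the FPKM steps, and exon lengths came from GENCODE M21. Motifs were searched in RefSeq promoters (GRCm38.p6). The members, lists and named genes were chosen with earlier results of these data known. Named with values were the 10 members with the smallest p, the 3 largest changes in each direction, the 3 highest and 3 lowest levels, the S18 paralogs, the stalk proteins and Mrpl58, and up to 4 genes of each other list. The fifth mitoribosomal protein with another symbol, Mrps14, Mrpl46, Mrpl47, Mrpl1, Mrps27, Mrps28, Mrps31 and the divergent partners were named after their values were seen. Mrpl17, Mrpl33, Mrpl40, Mrpl53, Mrps6 and Mrps34 were not analysed here.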

Additional observations from a re-analysis of the deposited data

How the results depend on the processing

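No member passed an adjusted p of 0.05 (limma with Benjamini-Hochberg adjustment) under any of the 15 alternatives, and the median stayed negative and below that of all genes in each. The count of members lower at an unadjusted p under 0.05 (limma) was 13, beside 7.96% of all tested genes. It became 20 with quantile normalization, beside 11.3%, and 1 with TPM rescaling, beside 2.83%. Of the 13 called genes, 9 to 13 were also called under the alternatives that kept all 4 libraries, except TPM rescaling (1), and 3, 1, 13 and 0 without CD37fl/fl replicates 1 and 2 and CD37-/- replicates 1 and 2. The count of higher members was 0, beside 16.1% of all tested genes. Among the alternatives that kept all 4 libraries, it became 1 with all genes above 0 tested, beside 12.6%, and 2 with TPM rescaling, beside 30.6%. The median of -0.39 became -0.055 with TPM rescaling and ranged from -0.57 to -0.18 when 1 library was left out. Over the 20 named members, 268 of 272 alternative values kept their direction, those of the eBayes settings and the replicate block by design. The other 4 turned: Mrpl3 (-0.0036) and Mrps18b (-0.0019) with quantile normalization, and Mrpl50 and Mrps18b without CD37fl/fl replicate 1. Leaving out 1 library gave a range from -0.040 to 0.60 for Mrpl50 and from -0.053 to 0.28 for Mrps18b. Leaving out a library leaves its group with 1, assumed to vary like the other group. With the replicate block 11 members were lower and 0 passed the adjusted p. Over all genes it gave 73 at an adjusted p under 0.05 (limma) against 0. Robust estimation gave 88, a filter at a mean FPKM of at least 5 gave 45, and exon length gave 16. Deviations of same-numbered libraries from their group means had r = -0.04 over all tested genes. Each group gives only the difference between its 2 libraries, so this correlation cannot decide whether the numbers pair libraries. The cause of these shifts was not tested. With 2 libraries per group an exact test cannot go below 0.333.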
